A study of Mus musculus with 4 samples.

Results

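The 10 genes described here, *Zbtb16*, *Sall4*, *Lin28a*, *Taf4b*, *Utf1*, *Pou3f1*, *Foxo1*, *Dmrt1*, *Bmi1* and *Dazl*, are regulators of undifferentiated male germ cells. They were chosen by gene symbol from the 30828 genes of the deposited matrices, and each symbol matched a single gene. Their transcripts were counted in testis cells from mice at postnatal day 8 on a droplet platform that marks each captured molecule with a unique molecular identifier (UMI) and each droplet with a barcode. In *Cnot3*-cKO mice both copies of *Cnot3*, a subunit of the CCR4-NOT deadenylase complex, were flanked by loxP sites, and *Ddx4*-creER expressed a Cre in germ cells that 4-hydroxytamoxifen (4OHT) activates. Control mice are labelled wild-type, while the series' own text describes them as *Cnot3* flox/flox mice without the Cre, so they do not control for the Cre itself. Both groups received 4OHT from postnatal day 1. The last day of injection in the labels runs from 1 and 2 in the control samples to 3 and 4 in the *Cnot3*-cKO samples, whereas the study's methods describe 1 schedule. Each genotype has 2 labelled samples that share 1 matrix, with no record of which barcode belongs to which sample. The comparison is thus between 1 control library and 1 *Cnot3*-cKO library, without replicates and without a test between genotypes. Brackets hold 95% intervals for counting error only, in which neither the variation between animals nor that between cells is included.

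Undifferentiated spermatogonia comprise the stem cells and the progenitors that they give rise to. Stem cells carry GFRA1, part of the receptor for the growth factor GDNF, progenitors carry NEUROG3, and the retinoic acid response that starts differentiation brings on KIT and, later, the meiotic program in which MEIOC acts. ZBTB16 (PLZF) is a zinc finger repressor whose loss depletes the stem cell pool with age, and SALL4 is a zinc finger factor that binds the NuRD repressor complex and ZBTB16. LIN28A is an RNA-binding protein that blocks maturation of let-7 miRNAs, UTF1 is a chromatin factor of pluripotent and early germ cells, and FOXO1 is a forkhead factor that PI3K-AKT signaling keeps out of the nucleus. POU3F1 is a POU domain factor downstream of GDNF, TAF4B is a germ cell subunit of the general transcription factor TFIID, and BMI1 is a subunit of Polycomb repressive complex 1. DMRT1 controls the timing of meiosis in germ cells and maintains Sertoli cell identity, and DAZL binds germ cell mRNAs and acts on their translation from before birth through meiosis.

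Cells had been sorted for CD9 and THY1. Of 8341 called control and 9336 *Cnot3*-cKO barcodes, 8259 and 9268 had at most 20% mitochondrial UMIs. Of these, 782 in control and 397 in *Cnot3*-cKO held at least 10 UMIs of *Ddx4*, the germ cell RNA helicase, and are called germ barcodes here (9.47% and 4.28%, both shares being set in part by the sort). Barcodes with 0 *Ddx4* UMIs, 6657 and 8437, are called somatic. The gate acted unequally, since 61.6% of control and 74.9% of *Cnot3*-cKO barcodes with 3 or more *Ddx4* UMIs reached 10, and *Ddx4* itself stood at 318 and 369 UMIs per 1000000 (CPM) behind it. Median depth was 48562 and 51427 UMIs in germ barcodes and 13696 and 12923 in somatic barcodes. The libraries share 18 called barcodes, none of them a germ barcode. In germ barcodes *Cnot3* stood at 69.1 CPM (66.5 to 71.8) for control and 37.8 (35.3 to 40.5) for *Cnot3*-cKO. The 3′ tags may lie outside the deleted part, in which case this value checks nothing. In germ barcodes the 6 germ markers summed to 929 and 1151 CPM, the 9 Sertoli markers to 388 and 573, the 7 stromal markers to 588 and 650, the 7 endothelial markers to 38.9 and 52.8 and the 8 macrophage markers to 35.8 and 8.02, with no marker of these lists at 0. In Sertoli barcodes the Sertoli list summed to 11461 and 12623 CPM. If all Sertoli marker UMIs of germ barcodes came from free RNA, it would make up 10.6% and 9.60% of their UMIs. *Ctsl* alone gave 218 of the 388 CPM in control and 311 of the 573 in *Cnot3*-cKO. Transcription of *Ctsl* by germ cells was not tested and would make these shares too high, as would barcodes that hold a germ and a Sertoli cell.

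The first comparison asked in which cells the 10 transcripts were present. *Zbtb16*, *Sall4*, *Lin28a* and *Pou3f1* were nearly restricted to germ barcodes in both libraries, whereas *Foxo1*, *Bmi1*, *Taf4b* and, among Sertoli cells, *Dmrt1* were also transcribed outside the germ line. Somatic barcodes were assigned to 2730 control and 4206 *Cnot3*-cKO Sertoli barcodes and 3311 and 3426 interstitial barcodes (stromal and peritubular myoid markers together) from their marker genes. *Zbtb16* (ENSMUSG00000066687.5, chromosome 9, 48654297 to 48836222, minus strand, GRCm38) stood at 114 CPM (111 to 118) in control germ barcodes. In control Sertoli barcodes it stood at 0.649 CPM (0.424 to 0.951). The *Cnot3*-cKO library gave 81.7 CPM in germ and 0.323 in Sertoli barcodes. *Sall4* (ENSMUSG00000027547.17, chromosome 2, 168748332 to 168767943, minus strand) stood at 127 and 115 CPM in germ barcodes of control and *Cnot3*-cKO, against 0.949 and 0.374 in Sertoli barcodes. Both zinc finger genes thus lay more than 100-fold higher in germ than in Sertoli barcodes of the same library, *Zbtb16* by 176- and 253-fold and *Sall4* by 134- and 306-fold.

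**Figure D1:**
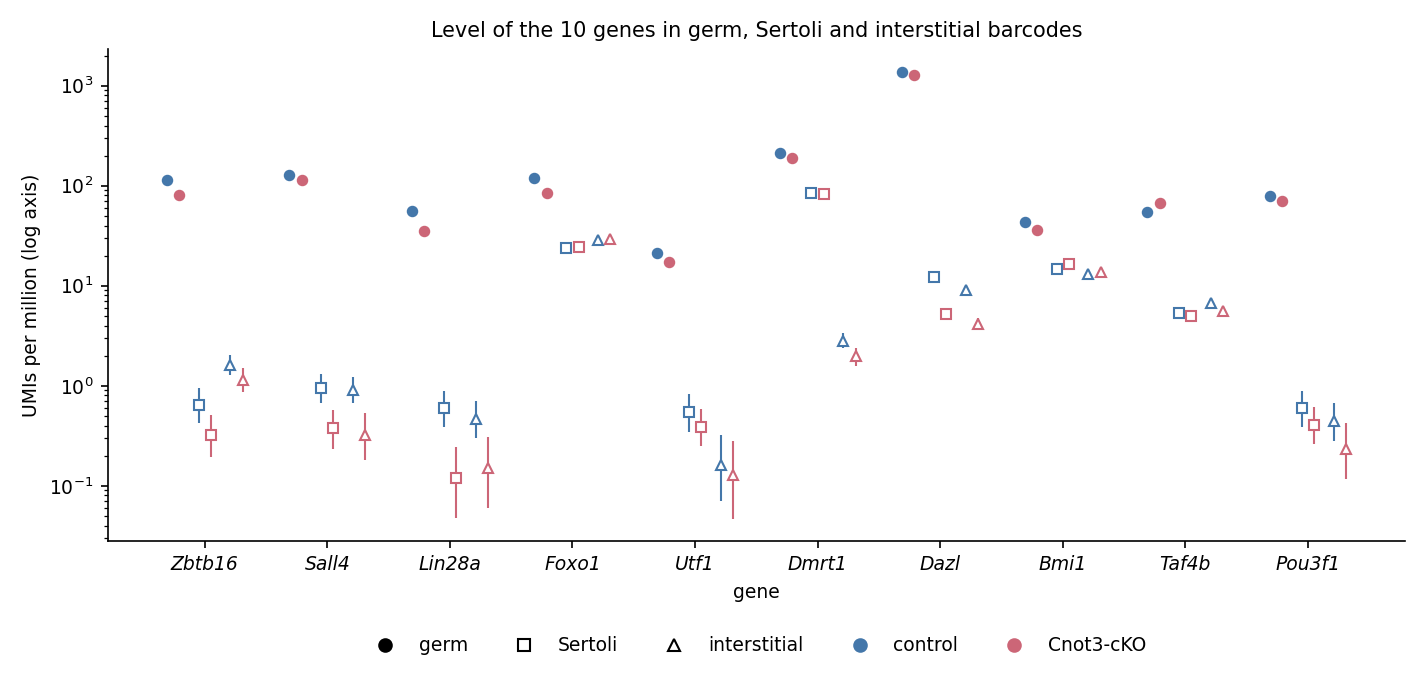
Level of each gene in CPM (log axis) in germ barcodes (filled circles), Sertoli barcodes (open squares) and interstitial barcodes (open triangles) of the control (blue) and *Cnot3*-cKO (red) libraries, with 95% Poisson intervals for counting error. In Sertoli and interstitial barcodes *Zbtb16*, *Sall4*, *Lin28a*, *Utf1* and *Pou3f1* lie under 2 CPM, while *Foxo1*, *Bmi1* and *Taf4b* lie between 4.99 and 29.5 CPM. *Dmrt1* lies at 81.7 and 84.0 CPM in Sertoli barcodes.

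How much of the somatic signal free RNA alone would give was estimated from the germ genes *Mael* and *Tdrd1*, which somatic cells should lack. They put free RNA at 4.38% of the UMIs of control and 2.63% of those of *Cnot3*-cKO Sertoli barcodes, and at 3.204% and 2.33% in interstitial barcodes. *Dazl* (ENSMUSG00000010592.8, chromosome 17, 50279395 to 50293636, minus strand) stood at 12.1 and 5.19 CPM in Sertoli barcodes, where free RNA would give 15.2 and 6.26, and is read as background there. *Sall4* and *Lin28a* (ENSMUSG00000050966.9, chromosome 4, 134003330 to 134018841, minus strand) were also at or below the free RNA level in both somatic classes, within counting error. *Dmrt1* (ENSMUSG00000024837.15, chromosome 19, 25505618 to 25604329, plus strand) was 22.3 times the free RNA level in control Sertoli barcodes, at 84.0 CPM, and 33.4 times in *Cnot3*-cKO, at 81.7 CPM. In interstitial barcodes *Dmrt1* stood at 2.83 and 1.97 CPM, where free RNA would give 2.75 and 2.16. The Sertoli factor was thus measured where it is known to act, and its interstitial level was that of free RNA.

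*Foxo1* (ENSMUSG00000044167.6, chromosome 3, 52268336 to 52353221, plus strand) stood at 23.8 and 24.4 CPM in Sertoli and 28.7 and 29.5 CPM in interstitial barcodes of control and *Cnot3*-cKO. Its highest level outside the germ line was in endothelial barcodes, with 70.5 CPM on 32 UMIs in 31 control barcodes and 101 CPM on 53 UMIs in 41 *Cnot3*-cKO barcodes. *Bmi1* (ENSMUSG00000026739.13, chromosome 2, 18677018 to 18686629, plus strand) stood at 14.8 and 16.4 CPM in Sertoli and 13.1 and 13.8 in interstitial barcodes. *Taf4b* (ENSMUSG00000054321.6, chromosome 18, 14783245 to 14900359, plus strand), the germ cell subunit of TFIID, stood at 5.37 and 4.99 CPM in Sertoli and 6.73 and 5.56 in interstitial barcodes, 7.90 to 13.7 times what free RNA would give. *Taf4b* and *Foxo1* each overlap another annotated gene on the same strand (AC133172.1 and Gm38034), and *Sall4*, *Lin28a*, *Pou3f1* and *Foxo1* each overlap one on the other strand. How reads in these overlaps were counted is not given in the sources used here.

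*Zbtb16* and *Utf1* (ENSMUSG00000047751.9, chromosome 7, 139943789 to 139945112, plus strand) had low somatic levels that differed between the classes. In interstitial barcodes *Zbtb16* stood at 1.63 CPM (1.29 to 2.03) for control and 1.15 (0.867 to 1.51) for *Cnot3*-cKO, 1.70 and 4.33 times the level that free RNA would give. In Sertoli barcodes it was 0.496 and 1.07 times that level, and the control interval (0.424 to 0.951) lay below the expected 1.31 CPM. The free RNA estimate was thus too high for *Zbtb16* in control Sertoli barcodes. Of the *Zbtb16* and *Sall4* UMIs of interstitial barcodes, *Zbtb16* made up 64.0% in control (54.9 to 72.4) and 78.3% in *Cnot3*-cKO (66.7 to 87.3). In empty barcodes, which hold free RNA only, it made up 49.9% and 43.5%, and in Sertoli barcodes 40.6% (28.5 to 53.6) and 46.3% (30.7 to 62.6). The interstitial ratio of the pair was therefore above that of the free RNA in both libraries. In Sertoli barcodes *Utf1* stood at 0.549 CPM (0.344 to 0.832) for control and 0.391 (0.248 to 0.587) for *Cnot3*-cKO, on 22 and 23 UMIs, and at 0.163 (0.0704 to 0.321) and 0.128 (0.0471 to 0.279) in interstitial barcodes. The Sertoli levels of *Utf1* were 2.62 and 6.34 times what free RNA would give. Its interstitial levels were 1.06 and 2.35 times, with intervals that held the free RNA level. *Pou3f1* (ENSMUSG00000090125.3, chromosome 4, 124656807 to 124660655, plus strand) was at 0.599 and 0.408 CPM in Sertoli barcodes. In endothelial and macrophage barcodes, 30 to 49 a library, *Zbtb16*, *Lin28a*, *Utf1* and *Pou3f1* had 0 UMIs. *Sall4* had 3 UMIs in control endothelial barcodes (6.61 CPM), 1 in control macrophage barcodes and 0 in both classes of *Cnot3*-cKO.

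The somatic levels were then compared between genotypes. Among the members with at least 100 UMIs over both libraries, 0 of 5 in Sertoli barcodes were at least 1.5-fold higher in *Cnot3*-cKO (1.14% of 12195 genes were) and 1 of 5 was at least 1.5-fold lower (1.03% were). In interstitial barcodes the counts were 0 of 6 higher (1.05% of 12638 genes) and 1 of 6 lower (1.02%). The lower member was *Dazl* in both classes, whose level in empty barcodes was 346 CPM for control and 238 for *Cnot3*-cKO. Members with fewer UMIs were also lower in *Cnot3*-cKO. In Sertoli barcodes the log2 ratio was -1.01 (-1.94 to -0.10) for *Zbtb16*, -1.34 (-2.17 to -0.55) for *Sall4* and -2.33 (-3.79 to -1.07) for *Lin28a*, and in interstitial barcodes it was -1.52 (-2.47 to -0.65) for *Sall4* and -1.65 (-3.11 to -0.38) for *Lin28a*. Empty barcodes, too, held less of these transcripts in *Cnot3*-cKO, with *Zbtb16* at 29.9 and 11.4 CPM, *Sall4* at 30.01 and 14.9 and *Lin28a* at 17.1 and 8.68.

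The main comparison asked whether these regulators differed between control and *Cnot3*-cKO germ barcodes. *Lin28a*, *Foxo1* and *Zbtb16* were lower in *Cnot3*-cKO, *Taf4b* was higher, and *Sall4*, *Dmrt1* and *Dazl* lay close to their control level. Of the 10 genes, 9 were below 0 on the log2 scale of *Cnot3*-cKO relative to control, against 46.2% of the 12632 genes that reached 100 UMIs in both libraries together. The median over the 10 was -0.21, and that over all genes was 0.03. The members were chosen with earlier results of these data known, so these counts and medians are descriptions only. At least 1.5-fold higher were 0 of 10 members (7.66% of all genes), and at least 1.5-fold lower was 1 of 10, *Lin28a* (3.52% of all genes). That call was lost with equal stage shares (-0.55) and with a 10% mitochondrial limit (-0.48), and its direction turned under the filters of the study (0.078), which leave 84 control and 15 *Cnot3*-cKO germ barcodes. At 2-fold, 0 members were higher (2.01% of all genes) and 0 lower (0.705%). All members but *Lin28a* thus differed by less than 1.5-fold.

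*Lin28a* had 56.5 CPM (54.1 to 58.9) for control against 35.1 (32.7 to 37.8) for *Cnot3*-cKO, which is a log2 ratio of -0.68 (-0.81 to -0.56). *Foxo1* had 120 CPM and 84.0 CPM, a ratio of -0.51 (-0.59 to -0.43). *Zbtb16* had a ratio of -0.48 (-0.56 to -0.40), whereas *Sall4*, its binding partner, had -0.15 (-0.22 to -0.08). The intervals of the pair did not overlap, so the partners differed between the libraries by unequal amounts. *Utf1* had 21.1 and 17.4 CPM, a ratio of -0.28 (-0.46 to -0.10), on 824 and 371 UMIs. *Pou3f1* had 79.3 and 70.0 CPM, a ratio of -0.18 (-0.27 to -0.09).

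*Dmrt1* had 211 and 190 CPM, a ratio of -0.15 (-0.20 to -0.09), and *Dazl* had 1372 and 1291 CPM, a ratio of -0.09 (-0.11 to -0.07). *Bmi1* had 42.9 and 36.2 CPM, a ratio of -0.25 (-0.37 to -0.12). *Taf4b* was the only member with a higher value in *Cnot3*-cKO, at 66.8 CPM against 55.2, a ratio of 0.27 (0.18 to 0.37). In sums over barcodes, fewer cells that express a gene and less RNA per cell cannot be told apart, so the same genes were next followed per barcode and by stage.

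**Figure D2:**
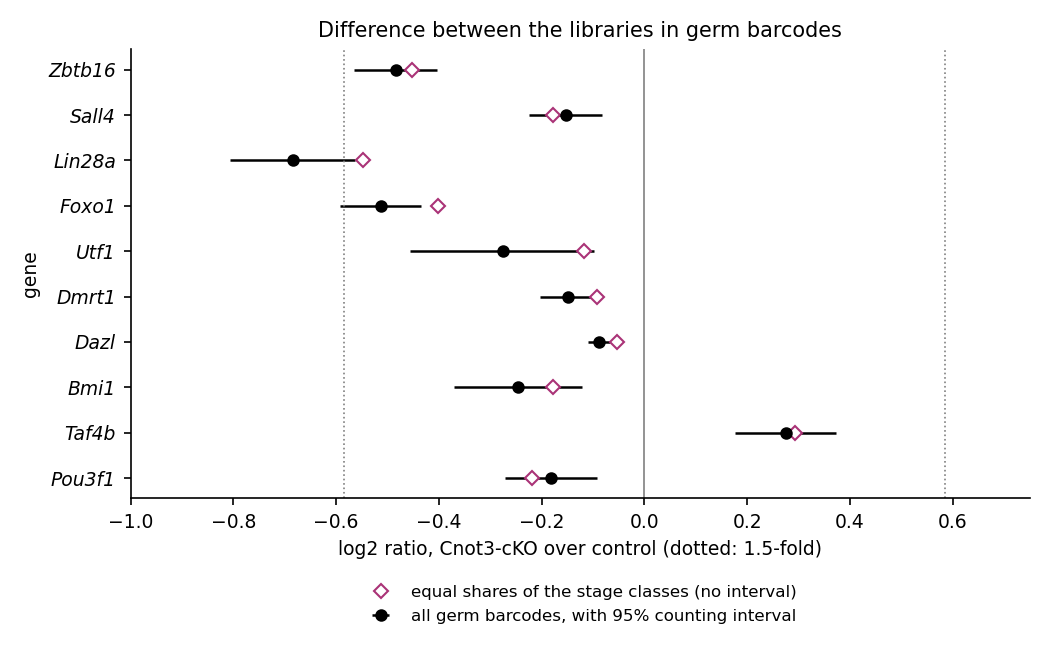
Log2 ratio (*Cnot3*-cKO relative to control) in germ barcodes for each gene (black, with the 95% counting interval), and the same ratio after both libraries were given equal shares of the stage classes (open diamonds, no interval); dotted lines mark a 1.5-fold difference. Only *Taf4b* lies above 0, and *Lin28a* alone lies past the dotted line, at -0.68; with equal stage shares, at -0.55, it lies inside the line.

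Per barcode, the genes were detected in unequal shares of the germ barcodes of the libraries. A share at a fixed depth also falls with the RNA per cell. It therefore cannot tell fewer expressing cells from less RNA per cell either. After each barcode was thinned to 10000 UMIs, *Zbtb16* was seen in 60.5% (57.0 to 63.9) of germ barcodes in control and 53.1% (48.1 to 58.1) in *Cnot3*-cKO. The background is the share in Sertoli barcodes, 0.722% and 0.345%. Without thinning the germ shares were 92.7% and 88.9%. *Sall4* was seen in 64.8% and 62.2%, with intervals that overlap, against 0.923% and 0.212% in Sertoli barcodes. *Lin28a* was seen in 38.5% (35.1 to 42.0) and 28.2% (23.8 to 32.9), and *Taf4b* in 40.9% (37.5 to 44.5) and 52.4% (47.4 to 57.4), the reverse order. *Dazl* was seen in every germ barcode of both libraries. *Dmrt1* was seen in 86.3% and 79.3%, *Foxo1* in 64.5% and 57.9%, *Pou3f1* in 52.7% and 44.6%, *Bmi1* in 33.8% and 30.7%, and *Utf1* in 18.2% and 14.6%. The median number of members seen in a barcode was 6 in control and 5 in *Cnot3*-cKO. The pair *Zbtb16* and *Sall4* was seen together in 42.8% of germ barcodes in control and 35.0% in *Cnot3*-cKO, and neither gene in 17.5% and 19.6%. The share that independent detection of the pair would give was not computed, so co-expression was not tested.

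The spread between barcodes of a library was wider than the difference between the libraries. From the 25th to the 75th percentile of germ barcodes, *Zbtb16* ran from 44.5 to 174 CPM in control and from 29.8 to 119 in *Cnot3*-cKO. The medians were 100 and 72.1 CPM. For *Sall4* the medians were 110 and 98.8 CPM, and for *Lin28a* 44.9 and 26.6. The *Taf4b* medians were 49.9 CPM for control and 60.5 for *Cnot3*-cKO. For *Utf1* the median was 0 CPM in both libraries. The barcodes of these genes thus overlapped widely between the libraries.

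Germ barcodes were then divided by stage markers. A barcode with 2 or more UMIs of only *Gfra1*, *Neurog3*, *Kit* or *Meioc* was put in the class of that gene, and the remainder had several of these markers or none. The *Gfra1* class held 138 control (17.6%) and 149 *Cnot3*-cKO (37.5%) barcodes, the *Neurog3* class 73 (9.34%) and 5 (1.26%), the *Kit* class 196 (25.1%) and 66 (16.6%), and the *Meioc* class 50 (6.39%) and 15 (3.78%). Several markers were seen in 119 (15.2%) and 69 (17.4%) barcodes and none in 206 (26.3%) and 93 (23.4%). Every *Cnot3*-cKO value for the *Neurog3* class thus rests on 5 barcodes. Median depth of the classes lay between 45068 and 55014 UMIs.

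In the control library the 10 genes fell into 3 patterns across these classes. *Zbtb16*, *Sall4*, *Lin28a*, *Foxo1* and *Utf1* were lowest in the *Kit* class. *Zbtb16* stood at 188 CPM (175 to 203) in the *Neurog3* class, 150 (143 to 158) with no marker, 130 (121 to 139) in the *Gfra1* class, 123 (109 to 138) in the *Meioc* class, 100 (92.6 to 108) with several markers and 47.0 (42.9 to 51.5) in the *Kit* class. Of neighbours in that order, only the *Gfra1* and *Meioc* classes had overlapping intervals. *Sall4* ran from 189 CPM in the *Neurog3* and 148 in the *Gfra1* class to 81.9 in the *Kit* class. Both transcripts were thus higher in the *Neurog3* than in the *Gfra1* class and lowest in the *Kit* class. *Lin28a* ran from 89.4 CPM in the *Neurog3* class through 51.3 in the *Gfra1* class to 31.3 in the *Kit* class, and *Foxo1* from 199 through 108 to 74.7. *Utf1* stood at 31.0 CPM in the *Meioc*, 29.5 in the unmarked and 29.3 in the *Neurog3* class, which overlapped, and at 8.53 (6.83 to 10.5) in the *Kit* class.

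*Dmrt1*, *Dazl*, *Bmi1* and *Pou3f1* were highest in the *Kit* class of the control library. *Dazl* stood at 1707 CPM (1682 to 1733) there and at 1146 to 1334 in the other classes. *Dmrt1* stood at 249 CPM (239 to 259) in the *Kit* class and 174 (164 to 184) in the *Gfra1* class. *Bmi1* stood at 50.01 CPM (45.7 to 54.6) and 37.0 (32.4 to 42.1), and each of its neighbouring classes overlapped. *Pou3f1*, which GDNF is known to induce, stood at 92.7 CPM (86.8 to 98.8) in the *Kit* class and 83.0 in the *Gfra1* class. It stood at 64.9 CPM (60.01 to 70.1) with no marker and 61.2 (51.6 to 71.9) in the *Meioc* class. *Taf4b* followed neither pattern and moved between 46.2 CPM in the *Gfra1* and 61.6 in the *Meioc* class. Intervals of all neighbouring classes overlapped for both *Pou3f1* and *Taf4b*. Classes further apart could still differ, and the *Taf4b* intervals of the *Gfra1* (41.1 to 51.8) and *Kit* (53.3 to 62.7) classes did not overlap.

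Within each library the *Gfra1* class was set against the *Kit* class. In control 4 of 10 members were at least 1.5-fold higher in the *Gfra1* class (12.8% of 9555 genes were) and 0 of 10 at least 1.5-fold lower (17.0% were). In *Cnot3*-cKO 1 of 10 was higher (12.7% of 8838 genes) and 0 lower (13.0%). *Zbtb16* was the member that was higher in both, with log2 ratios of 1.46 (1.30 to 1.63) in control and 1.59 (1.31 to 1.87) in *Cnot3*-cKO. For *Sall4* the ratios were 0.86 (0.72 to 0.99) and 0.58 (0.40 to 0.76). *Utf1* had 1.07 (0.65 to 1.49) in control and -0.14 (-0.60 to 0.33) in *Cnot3*-cKO, and *Lin28a* 0.71 (0.49 to 0.94) and 0.13 (-0.21 to 0.47). *Foxo1* had 0.54 (0.38 to 0.69) and 0.19 (-0.02 to 0.41). *Pou3f1* had -0.16 (-0.32 to -0.0042) in control and 0.32 (0.11 to 0.54) in *Cnot3*-cKO, with opposite signs. *Taf4b* had -0.32 (-0.53 to -0.12) in control and 0.05 (-0.17 to 0.28) in *Cnot3*-cKO, and *Bmi1* -0.43 (-0.66 to -0.21) and -0.15 (-0.45 to 0.17). *Dmrt1* (-0.52 and -0.47) and *Dazl* (-0.52, -0.56 to -0.48, and -0.40, -0.45 to -0.35) were lower in the *Gfra1* class of both libraries. The intervals of the 2 libraries thus overlapped for *Zbtb16* and not for *Utf1*, *Lin28a*, *Pou3f1* and *Dazl*.

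**Figure D3:**
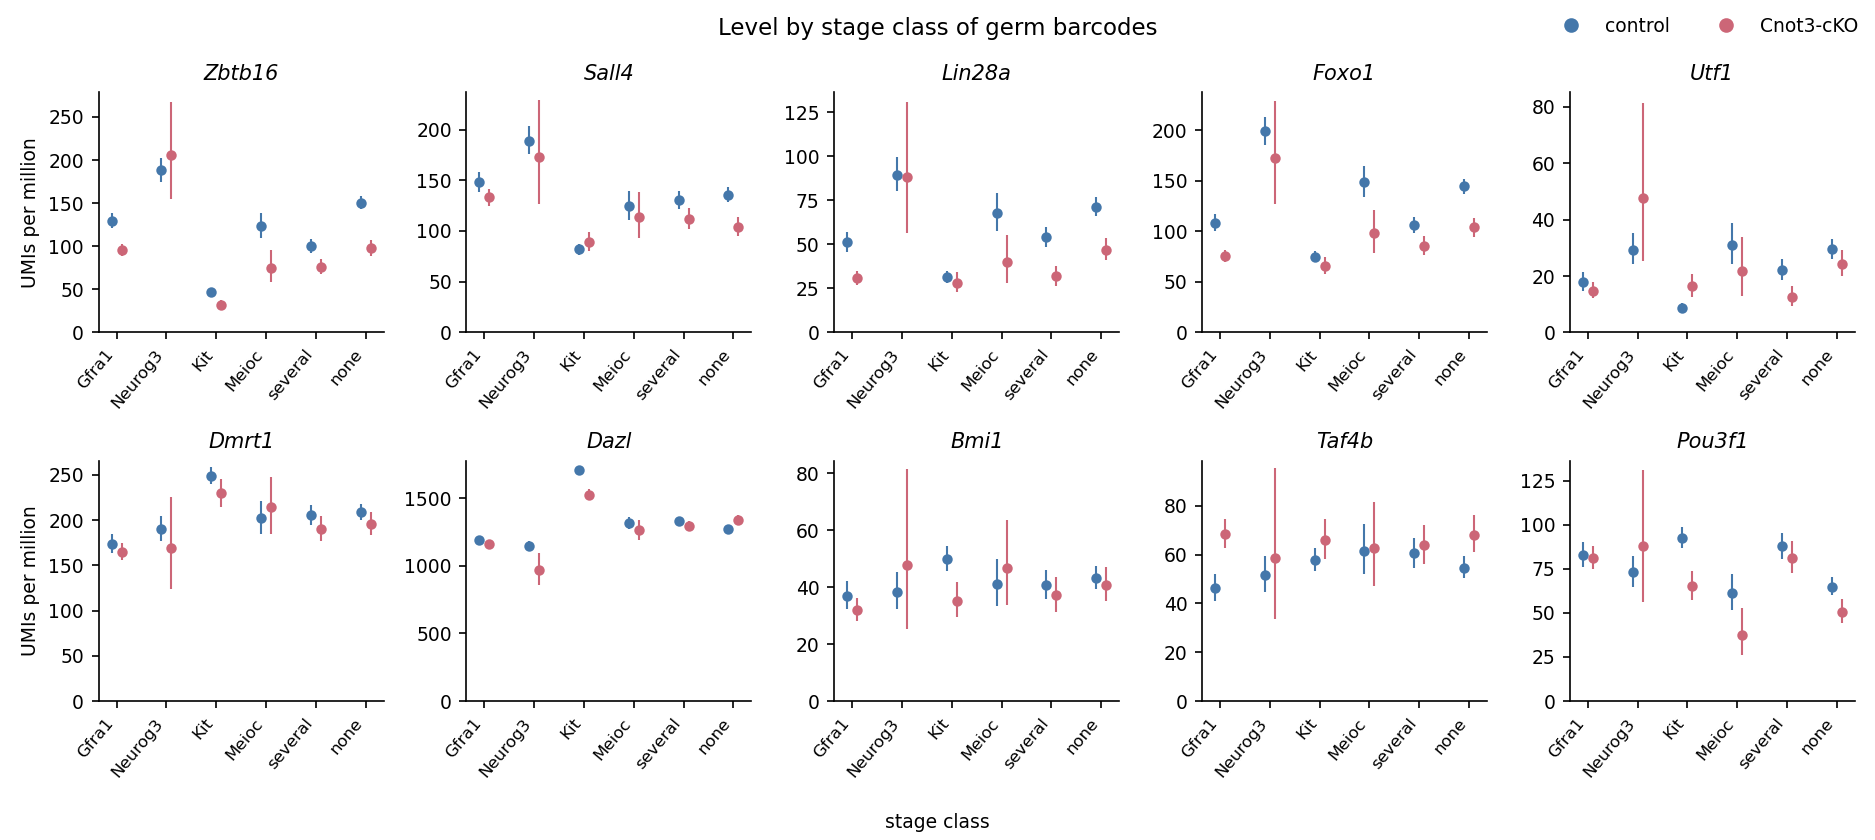
Level of each gene in CPM by stage class of germ barcodes in the control (blue) and *Cnot3*-cKO (red) libraries, with 95% Poisson intervals for counting error; each panel has its own axis from 0. *Zbtb16* drops to 47.0 CPM in the control *Kit* class while *Dazl* is highest there, at 1707 CPM, and the wide *Neurog3* intervals of *Cnot3*-cKO come from 5 barcodes.

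The stage classes were compared between genotypes next, to see whether a difference over all germ barcodes was also present within a stage. *Zbtb16* was lower in *Cnot3*-cKO in 5 of 6 classes with an interval below 0. In the *Gfra1* class control had 130 CPM against 95.5 for *Cnot3*-cKO, which is a log2 ratio of -0.44 (-0.59 to -0.30), and in the unmarked class at 150 and 97.9, a ratio of -0.62 (-0.77 to -0.47). In the *Kit* class the ratio was -0.56 (-0.86 to -0.27), in the *Meioc* class -0.71 (-1.12 to -0.32) and with several markers -0.40 (-0.60 to -0.20). In the *Neurog3* class it was 0.12 (-0.29 to 0.52). Other stage rules set the markers at 1 or 3 UMIs, took the latest marker, or thinned the barcodes first. Under these rules the *Kit* class ratio of *Zbtb16* ran from -0.64 to -0.23. Given equal stage shares in both libraries, the *Zbtb16* ratio was -0.45, against -0.48 over all germ barcodes. That value equalises the 6 classes only, not the stages mixed within a class, and its *Cnot3*-cKO *Neurog3* level rests on 5 barcodes. Whether stage shares account for the difference was not tested. *Cnot3* itself had ratios of -1.19 (-1.46 to -0.92) in the unmarked, -0.91 in the several and -0.87 in the *Neurog3* class. In the *Gfra1* class it had -0.86 (-1.09 to -0.64), in the *Kit* class -0.54 (-0.78 to -0.31) and in the *Meioc* class -0.49 (-1.01 to -0.003). Whether the share of cells with the deletion differs between the classes was not tested.

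*Sall4* was lower within 5 of 6 classes, and in 3 of them the interval lay below 0. Its ratio was -0.15 (-0.28 to -0.03) in the *Gfra1* class, -0.22 (-0.39 to -0.05) with several markers and -0.38 (-0.54 to -0.23) with none, and 0.12 (-0.06 to 0.31) in the *Kit* class. *Lin28a* was lower in all 6 classes, in 4 of them with an interval below 0, from -0.77 with several markers to -0.02 in the *Neurog3* class. In the *Gfra1* class it stood at 51.3 CPM for control and 30.7 for *Cnot3*-cKO, and in the *Kit* class at 31.3 and 28.1. Its *Kit* class ratio was -0.15 (-0.48 to 0.17), and under the other stage rules it ran from -0.16 to 0.26, on both sides of 0. *Foxo1* was likewise lower in all 6 classes, with a ratio of -0.52 (-0.68 to -0.36) in the *Gfra1* class and -0.18 (-0.39 to 0.03) in the *Kit* class. Given equal stage shares, *Lin28a* had -0.55, *Foxo1* -0.40, *Sall4* -0.18 and *Utf1* -0.12.

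*Taf4b* was higher in *Cnot3*-cKO in all 6 classes, with intervals above 0 in the *Gfra1* class (0.57, 0.36 to 0.78, from 46.2 CPM for control and 68.6 for *Cnot3*-cKO) and the unmarked class (0.32, 0.12 to 0.52). *Pou3f1* differed least in the *Gfra1* class, where it stood at 83.0 and 81.4 CPM (-0.03, -0.20 to 0.14), and was lower in the *Kit* class at 92.7 and 65.0 CPM (-0.51, -0.72 to -0.31), the *Meioc* class (-0.70, -1.29 to -0.15) and the unmarked class (-0.35, -0.57 to -0.14). *Bmi1* was lower in the *Kit* class at 50.01 and 35.3 CPM (-0.50, -0.79 to -0.23), and its intervals in the other 5 classes held 0. *Dmrt1* stayed between -0.17 and 0.09 in all classes and *Dazl* between -0.24 and 0.07. The interval of *Taf4b* thus lay above 0 in 2 classes, and that of *Pou3f1* below 0 in 3 and of *Bmi1* in 1.

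By the 1.5-fold threshold, the *Gfra1* class held 1 member lower, *Lin28a* (3.36% of 9265 genes), and 0 higher (7.87%). The *Kit* class held 1 higher, *Utf1* (3.95% of 9088 genes), and 0 lower (2.21%). The *Meioc* class held 4 of the 9 members tested (all but *Utf1*) lower, *Zbtb16*, *Lin28a*, *Pou3f1* and *Foxo1* (6.81% of 4817 genes), and 0 higher (6.27%), on 15 *Cnot3*-cKO barcodes. With several markers 2 were lower, *Lin28a* and *Utf1* (4.08% of 8575 genes), and 0 higher (3.29%). With no marker 2 were lower, *Zbtb16* and *Lin28a* (7.08% of 9280 genes), and 0 higher (6.07%). In the *Neurog3* class 1 was higher, *Utf1* (9.28% of 5483 genes), and 0 lower (13.7%).

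Levels were also followed over rising UMIs of *Kit* and *Gfra1*. In control, *Zbtb16* stood at 155 CPM in the 419 germ barcodes without a *Kit* UMI, 120 in 84 barcodes with 1, 64.8 in 85 barcodes with 2 to 3, 51.1 in 134 barcodes with 4 to 7 and 49.4 in 60 barcodes with 8 or more. In *Cnot3*-cKO the same steps gave 104, 86.9, 50.7, 42.7 and 16.7 CPM, over 210, 69, 52, 51 and 15 barcodes. *Zbtb16* was lower at each step of *Kit* in both libraries. *Sall4* ran from 150 to 80.2 CPM in control and from 122 to 48.0 in *Cnot3*-cKO between the first and the last step. *Foxo1* started lower in *Cnot3*-cKO, at 91.6 CPM against 148 without a *Kit* UMI, stood level with control at 2 to 3 *Kit* UMIs, at 84.4 and 84.8 CPM, and was again lower at 4 to 7 (66.8 against 76.4 CPM) and at 8 or more (55.8 against 76.3), with intervals that overlap at all 3 steps. *Dazl* ran the other way, from 1198 to 1685 CPM in control and from 1180 to 1477 in *Cnot3*-cKO.

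Over UMIs of *Gfra1*, *Zbtb16* stood at 105 CPM for control and 63.1 for *Cnot3*-cKO without a *Gfra1* UMI, and at 112 and 120 CPM with 8 or more, where 15 control and 35 *Cnot3*-cKO barcodes were left. *Sall4* at that step stood at 134 and 150 CPM, and *Foxo1* at 88.2 and 90.6. *Pou3f1* stood there at 80.2 CPM (61.2 to 103) for control and 117 (102 to 133) for *Cnot3*-cKO, against 78.7 and 57.5 without a *Gfra1* UMI. At the step before, with 4 to 7 *Gfra1* UMIs in 67 control and 93 *Cnot3*-cKO barcodes, the libraries lay apart, *Zbtb16* at 129 and 84.8 CPM, *Sall4* at 160 and 119 and *Foxo1* at 111 and 74.2. The intervals of these 3 genes overlapped between the libraries at 8 or more *Gfra1* UMIs and not at 4 to 7. Those of *Pou3f1* overlapped at both steps, with 91.5 CPM for control and 77.7 for *Cnot3*-cKO at 4 to 7.

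**Figure D4:**
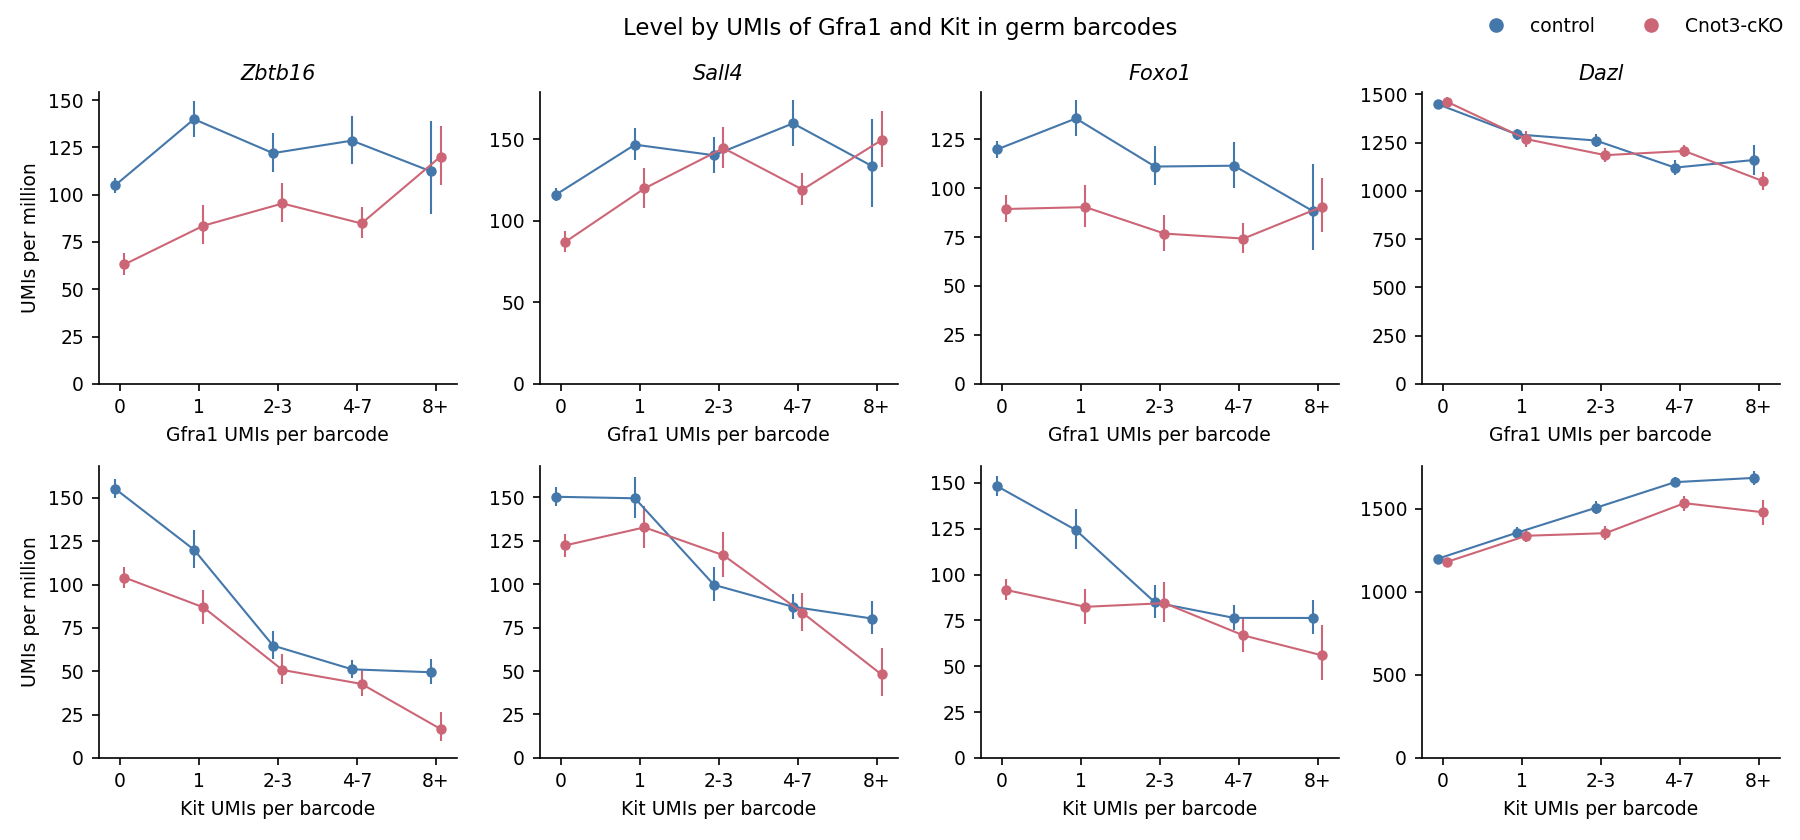
Level of *Zbtb16*, *Sall4*, *Foxo1* and *Dazl* in CPM against the number of *Gfra1* UMIs (top) and *Kit* UMIs (bottom) of a germ barcode in the control (blue) and *Cnot3*-cKO (red) libraries, with 95% Poisson intervals for counting error. *Zbtb16* runs from 155 CPM without *Kit* to 49.4 CPM at 8 or more *Kit* UMIs in control and from 104 to 16.7 CPM in *Cnot3*-cKO, whereas *Dazl* runs upward.

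The mitochondrial share moved with the genotype and with several members. It had a median of 10.1% in control and 8.93% in *Cnot3*-cKO germ barcodes. In barcodes with at most 10%, 383 in control and 281 in *Cnot3*-cKO, the ratio of *Zbtb16* was -0.35 (-0.45 to -0.24), that of *Lin28a* -0.48 (-0.63 to -0.33) and that of *Sall4* -0.04 (-0.13 to 0.05). In barcodes over 10%, 399 and 116, they were -0.47 (-0.61 to -0.33), -0.81 (-1.02 to -0.59) and -0.21 (-0.34 to -0.09). *Zbtb16* itself stood at 98.1 CPM in control barcodes of at most 10% and at 131 in those over 10%. The marker lists of Sertoli and macrophage cells also differed between the libraries, as given above, and leaving out the 60 control and 35 *Cnot3*-cKO germ barcodes richest in somatic RNA gave -0.50 for *Zbtb16*, -0.15 for *Sall4* and -0.69 for *Lin28a*. At the edge of the *Ddx4* gate, *Zbtb16* had a ratio of -0.74 in barcodes with 7 to 9 UMIs and -0.44 in those with 10 to 12, and *Taf4b* had -0.05 and 0.26.

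Genes related to the members were read in germ barcodes from lists of related genes, beside a median of 0.03 over all genes. In germ barcodes 7.66% of all genes were at least 1.5-fold higher and 3.52% lower. Of 28 paralogs 24 were tested, 1 was at least 1.5-fold higher and 3 lower, with a median of -0.19. The lower genes were *Sall1*, a relative of *Sall4* (16.7 and 8.63 CPM, -0.95), *Pou5f1*, the pluripotency factor OCT4 (49.7 and 29.7 CPM, -0.74), and *Pou3f2* (2.66 and 1.64 CPM, -0.70), and the higher gene was *Zbtb7b* (1.74 and 4.04 CPM, 1.21). Of 20 stem and undifferentiated genes 18 were tested, 7 were higher and 2 lower, with a median of 0.36. *Eomes* (2.33), *Id4* (1.25), *Gfra1* (1.24), *Bcl6b* (0.93), *Etv5* (0.84), *Lhx1* (0.81) and *Tspan8* (0.60) were higher, among which *Bcl6b*, *Etv5* and *Lhx1* are targets of GDNF signaling, as *Pou3f1* is. *Neurog3* (-1.98) and *Nanos3* (-0.72), which progenitors express, were lower. The 7 higher genes of this list and the members *Zbtb16*, *Lin28a* and *Foxo1* thus stood on opposite sides of 0. Of the 18 tested genes 5 were below 0, among them *Egr4* (-0.13), which had the most UMIs in the list. Differences in the *Gfra1* and *Neurog3* levels are those that set the sizes of the stage classes.

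Of 18 differentiation and meiotic genes 2 were higher and 1 lower, with a median of 0.01. *Stra8*, the retinoic acid response gene, had a ratio of -0.76 and the cohesin gene *Smc1b* 0.82. For the complexes in which the members act, the medians lay near 0 while single genes lay on both sides. None of 15 tested PRC1 and PRC2 genes, which include the partners of BMI1, passed 1.5-fold, with a median of 0.03 and *Eed* at 0.45. None of 13 NuRD genes, which SALL4 binds, passed it (median -0.03, *Chd4* at 0.27), and none of 14 TFIID genes tested (median -0.01), in which *Taf7* had 0.31 and *Taf10* -0.44 beside *Taf4b* at 0.27. Of 14 genes from PI3K to FOXO 1 was lower, *Akt1*, a kinase that phosphorylates FOXO1 (43.0 and 25.5 CPM, -0.75), with a median of -0.14.

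Over the 12 values of 6 stage classes in 2 libraries, the genes most like *Zbtb16* among 8898 were *Tnrc6b* (Pearson's r of 0.985), *Aff3* (0.981), *Foxf1* (0.977), *Rpl10a* (0.972) and *Wasf2* (0.971). Most like *Sall4* were *Pex6* (0.956), *Bcr* (0.953), *Rpl10a* (0.946), *Plin3* (0.942) and *Mrps6* (0.938). The pair itself had an r of 0.915. With *Zbtb16*, *Foxo1* had 0.897 and *Lin28a* 0.893, whereas *Dmrt1* had -0.68 and *Dazl* -0.83. The 12 values share 2 libraries and 1 of them rests on 5 barcodes, so these are descriptions of the pattern only.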

How the data were processed

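Whole-number UMI counts were deposited as 1 matrix per genotype, each merging 2 samples. The authors made the counts with Cell Ranger (version 3.0.1) on mm10 with Ensembl 93 annotation, and the sources used here give no other setting. Barcodes are listed uncalled, without a filter on depth or mitochondrial share.

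Barcodes were called at the 99th percentile of the top 3000 divided by 10, at thresholds of 7977 (control) and 7664 (*Cnot3*-cKO) UMIs. The filters of the study (10% mitochondrial UMIs, mean plus or minus 2 SD) leave 84 and 15 germ barcodes, so a 20% limit without upper bounds was used and the study's filters became an alternative. Scrublet (run through scanpy 1.11.5) called 499 (5.98%) and 454 (4.86%) doublets, 91 and 52 of them germ barcodes, which stayed in. UMIs were summed over barcodes and scaled per 1000000. Levels have exact Poisson intervals, log2 ratios exact conditional intervals and shares exact Clopper-Pearson intervals. With 1 matrix per genotype no p-value was computed, and called means past 1.5-fold among genes that reach 100 UMIs in both libraries together. Barcodes of at most 100 UMIs gave the free RNA profile. A somatic barcode took the marker list with the highest sum relative to the top 0.5% of barcodes, given at least 10 UMIs and a lead of 2 times. Ratios and intervals were tested on simulated data. Positions are from GENCODE M21 (GRCm38), matched by identifier without version.

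The members and lists were chosen with earlier results of these data known. All 10 members are described. From each list the text names the genes past 1.5-fold, and for likeness the 5 with the highest r of log2(CPM + 10) among genes with at least 500 UMIs. The splits by *Kit* and *Gfra1* UMIs, by mitochondrial share and by free RNA level were added after the data were seen. Alternatives were other *Ddx4* gates, filters, scalings, stage rules, thinning, doublets, and removal of free RNA or of barcodes rich in somatic RNA.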

Additional observations from a re-analysis of the deposited data

Results flagged for a closer look

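*Utf1* and *Dazl* had log2 ratios of *Cnot3*-cKO over control on opposite sides of 0 in different stage classes of germ barcodes, each with a counting interval that held no 0. For *Utf1* the ratio was 0.93 in the *Kit* class and -0.83 in barcodes with several stage markers. In the *Kit* class 52 of 196 control barcodes and 27 of 66 *Cnot3*-cKO barcodes carried a *Utf1* UMI, and the 5 richest barcodes held 15 of 86 and 25 of 62 UMIs. Under the other stage rules the *Kit* class ratio of *Utf1* ran from 0.48 to 0.77. For *Dazl* the ratio was 0.07 in unmarked barcodes, -0.24 in the *Neurog3* class, which holds 5 *Cnot3*-cKO barcodes, and -0.16 in the *Kit* class. With 1 library per genotype, these differences between classes were not tested.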

How the results depend on the processing

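No paired analysis was possible because each matrix merges both samples of a genotype, although the NS and NOV titles match across genotypes. For the same reason no replicate could be left out. Over 16 alternatives, *Zbtb16*, *Foxo1*, *Utf1*, *Dmrt1*, *Bmi1* and *Dazl* stayed below 0 and *Taf4b* above 0. The study's filters, with 84 and 15 germ barcodes, gave 0.078 for *Lin28a*, the opposite direction, 0.56 for *Sall4* and 0.38 for *Pou3f1*, also above 0, and -0.20 for *Zbtb16*. A gate of 20 *Ddx4* UMIs gave -0.37 for *Sall4* and -0.59 for *Zbtb16*, a 10% mitochondrial limit -0.043 and -0.35, and thinning to 10000 UMIs -0.013 for *Sall4*. Members past 1.5-fold, 1 in the text, were 2 with the gate of 20 and with the study's filters, and 0 with the 10% limit, equal stage shares or a 2-fold threshold (at which 2.01% of all genes were higher and 0.705% lower). The cause of these differences was not tested. Of the values that answer a comparison, 38 stayed within their counting interval and 12 moved beyond it. Of those that answer none on their own, 243 stayed, 84 moved and 1, *Lin28a* above, was counted as reversed. *Sall4* and *Pou3f1* also changed sign under the study's filters but were not counted as reversed. The main comparison names *Lin28a* as lower, yet its reversal is not among the counts of 38 and 12. Scaling by the median ratio over genes gave -0.52 for *Zbtb16* and -0.19 for *Sall4*. The *Neurog3* and *Meioc* classes hold 5 and 15 *Cnot3*-cKO barcodes. The other stage rules were run for the *Gfra1* and *Kit* classes and not for the other 4. A gate on *Mael* and *Tdrd1*, and leaving out barcodes called in both libraries, were chosen after seeing the data and gave -0.48 for *Zbtb16* each.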
